A study of Homo sapiens with 18 samples.

Results

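Collagens, laminins and fibronectin build the extracellular matrix, and integrins are the receptors by which cells hold on to it. These genes were taken from the deposited gene table by symbol: COL, a number, A and a number; LAMA, LAMB or LAMC with a digit; ITGA or ITGB with further letters or digits; and FN1. The names of 3 integrin-binding proteins (ITGB1BP1, ITGB1BP2 and ITGB3BP) were removed from 87 matching symbols, which left 84 of the 26485 genes. They are 44 collagen genes, 12 laminin chains, 26 integrin subunits, FN1 and ITGBL1, whose symbol matches the rule although its product is not an integrin subunit.

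RNA was sequenced in 18 libraries of the human pancreatic cancer line L3.6pl, 3 in each of 6 groups. Parental cells (Par) received a control siRNA (siCont). A gemcitabine-resistant derivative (GemR), kept in 64 nM gemcitabine, a nucleoside analogue that blocks DNA synthesis, received siCont or an siRNA against STIM1 (siSTIM1), the calcium sensor of the endoplasmic reticulum that opens calcium entry when the store is empty. The siRNA acted for 48 h, and for the last 3 h each group had DMSO (Veh) or 500 nM thapsigargin (Thap), which blocks the calcium pump of the endoplasmic reticulum and so empties the store. The 6 groups are thus Par siCont Veh, Par siCont Thap, GemR siCont Veh, GemR siCont Thap, GemR siSTIM1 Veh and GemR siSTIM1 Thap; all of them were transfected. GemR is a single derivative, so resistance, growth in the drug and any other difference from Par cannot be told apart. The labels do not say that replicates were separate cultures, and p-values then measure only the spread between these libraries, which may be technical.

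Fibrillar collagens form the tensile fibres of connective tissue, and type IV collagens and laminins form the basement membrane under epithelia. Each laminin joins an alpha, a beta and a gamma chain, and LAMA3 and LAMB3 are chains of a laminin that anchors epithelial cells through the integrin pair of ITGA6 and ITGB4 in hemidesmosomes. Integrins pair an alpha with a beta subunit: ITGB1 joins collagen receptors such as ITGA1 and ITGA2, laminin receptors such as ITGA3 and ITGA6, and the fibronectin receptor ITGA5, and ITGAV joins ITGB5, ITGB6 or ITGB8. In pancreatic tumours most fibrillar collagen is known to come from stellate cells and fibroblasts, while carcinoma cells make laminins and integrins.

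Levels are the authors' normalized counts, scaled with 1 factor for each library, from libraries of 8922439 to 16519239 reads. STIM1 averaged 457 in Par siCont Veh, 5890.4 in GemR siCont Veh and 382 in GemR siSTIM1 Veh, near the Par level. The summed level of 6 epithelial markers was 77125 to 109242 in every library, against 37.8 to 109 for 10 fibroblast and stellate cell markers, of which 2 had a mean of at least 10 and FAP and DCN were at 0 throughout. The sums were 114 to 282 for 5 endothelial and 73.2 to 177 for 5 immune markers, and their part in the results was not tested. In bulk RNA, fewer cells with a transcript and less of it per cell cannot be told apart. The deviations of GemR siCont Veh replicate 1 and GemR siSTIM1 Thap replicate 1 from their group means fell with transcript length over 12419 genes (Spearman's rho -0.592 and -0.525), and those of GemR siCont Veh replicate 3 rose with it (0.549). Deviations from a group mean balance within the group, so the rise in replicate 3 is not separate from the fall in replicate 1. The median exon length was 6174 bases over the 51 members tested, given below, and 3732 over those 12419 genes. Counts are also given without the first 2 of these libraries where they move.

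For the test, 51 of the 84 members had a mean of at least 10 over all libraries: 26 collagens, 9 laminins, 14 integrin subunits, ITGBL1 and FN1. The other 33 had overall means of up to 7.61, and ITGA8 was at 0 in all libraries. ITGA10, ITGB2, ITGB3 and ITGB7 were left out although they averaged at least 10 in a group, with 15.1 for ITGB3 as the highest. COL13A1, COL1A2, COL23A1, COL26A1, COL28A1, COL2A1, COL4A4, COL5A3 and COL9A3 passed although 1 or more groups averaged under 10. Differences are on the log2 scale of normalized count + 1 and understate the change of low genes. Calls are at adjusted p under 0.05, from limma over 13096 genes.

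Of the 84 members, 60 were found in the RefSeq promoter table (GRCh38.p14), with 79 windows. The 250 bases before each start were searched on both strands for the AP-1 motif (TGACTCA or TGAGTCA), the GC box (GGGCGG) and CCAAT. The AP-1 motif was in 4.20% of all 35116 windows and in 2 of the 79 (2.53%), those of LAMA3 and of 1 of 3 LAMB3 starts. Both genes rose with thapsigargin in all 3 backgrounds, and a link of the motif to that response was not tested. These windows are shown because they held the only AP-1 matches of the members and both genes belong to 1 laminin. COL3A1 had no window. The capitals mark the AP-1 motif, which starts at positions -125 and -69 from the LAMA3 start and at -67 from the LAMB3 start. A match is a description of these letters, not of binding.
LAMA3, chr18:23872770-23873019, plus strand: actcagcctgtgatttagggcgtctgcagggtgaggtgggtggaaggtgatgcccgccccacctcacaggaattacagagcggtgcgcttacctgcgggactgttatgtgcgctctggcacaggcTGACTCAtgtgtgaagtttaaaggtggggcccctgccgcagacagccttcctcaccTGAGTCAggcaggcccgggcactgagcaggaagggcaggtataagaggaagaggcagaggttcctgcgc
LAMB3, chr1:209651375-209651624, minus strand: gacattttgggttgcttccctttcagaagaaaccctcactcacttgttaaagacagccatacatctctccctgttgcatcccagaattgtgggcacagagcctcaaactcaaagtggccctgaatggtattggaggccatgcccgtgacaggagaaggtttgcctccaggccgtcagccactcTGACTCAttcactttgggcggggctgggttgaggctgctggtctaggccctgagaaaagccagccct
COL4A1 and COL4A2 lie head to head on chromosome 13 and are read in opposite directions from starts 126 bases apart. The stretch between these starts is shown because the ratio of the genes, given below, differed between the backgrounds. Its capitals mark a CCAAT and a GC box (GGGCGG), motifs in 32.0% and 42.6% of all windows and in 22.8% and 54.4% of the members' windows.
COL4A1 to COL4A2, chr13:110307158-110307283, plus strand: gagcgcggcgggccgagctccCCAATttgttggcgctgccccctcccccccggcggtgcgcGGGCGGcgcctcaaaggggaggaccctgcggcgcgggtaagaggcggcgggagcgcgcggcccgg

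Per kilobase of exon, integrins of epithelial adhesion were the most abundant members tested. In Par siCont Veh, ITGB4, the beta chain of the hemidesmosome receptor, stood at 2759 ± 200.5 normalized counts per kb (SD, n = 3), ITGA3 at 2142 ± 113, ITGA6 at 2056 ± 121 and ITGB1 at 2053 ± 69.2. ITGA3, ITGA6 and ITGB1 did not differ beyond their spread. ITGB5 followed at 1218 ± 35.6 and ITGA2, the alpha chain of a collagen receptor, at 861 ± 67.1. The remaining 8 tested subunits were lower, from 256 ± 12.0 for ITGAV to 3.08 ± 0.246 for ITGA7. Among laminins, LAMB3 led at 855 ± 77.7, and LAMA2, a chain of muscle and mesenchymal laminin, was last at 3.85 ± 1.44. Among collagens, COL3A1, a fibrillar collagen of soft connective tissue, led at 1326 ± 51.8, ahead of COL5A2 at 329 ± 8.05 and COL1A1 at 304 ± 18.5.

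**Figure D1:**
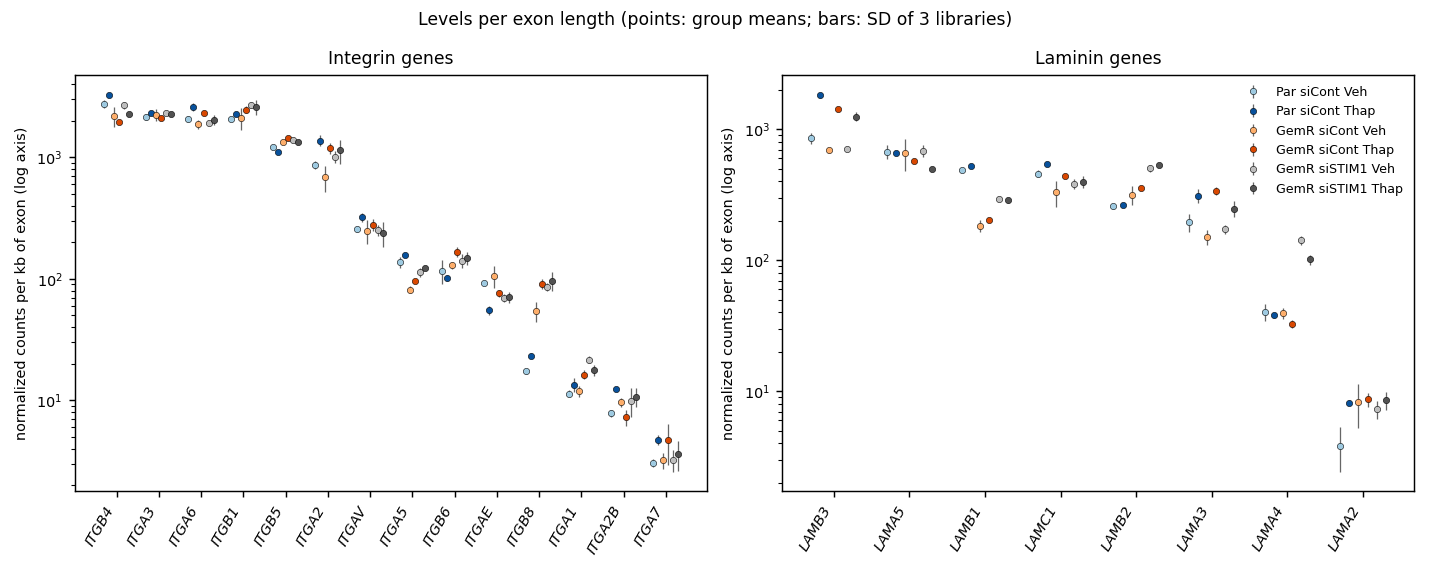
Levels of the 14 tested integrin subunits (left) and of 8 laminin chains (right), in order of their Par siCont Veh level. The vertical log axis gives normalized counts per kb of exon, points are group means, and bars are the SD of 3 libraries. ITGB8 in Par and LAMA4 in GemR siSTIM1 stand apart from the other groups of their gene.

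COL3A1, COL26A1 and COL1A2 were lower in GemR than in Par cells, and COL17A1 and ITGB8 were higher. In vehicle, 10 members were higher and 19 lower in GemR siCont than in Par siCont, beside 18.1% and 20.1% of all genes tested. With thapsigargin, 9 were higher and 16 lower, beside 23.2% and 25.0% of all genes. Of the 51 tested members, the share that was lower was above that of all genes in both conditions, and the share that was higher was near it in vehicle and under it with thapsigargin. The median difference of the members was -0.06 in vehicle and -0.09 with thapsigargin, against 0.00 and 0.00 over all genes. These comparisons share no library, but each gene has 1 estimate of the spread for both, so their calls are not independent. Lower in both were 14 members (14 of 19 and 14 of 16), and 6 were higher in both (6 of 10 and 6 of 9). The share of all genes called alike in both conditions is not given here. The overlap is therefore not read as a result about the members. By class, in vehicle, 13 of 26 collagens were lower and 5 higher, 4 of 9 laminins lower and 3 higher, and 2 of 14 integrin subunits lower and 1 higher. Of the 9 tested fibrillar collagens, 4 were lower and 2 higher in vehicle, with a median difference of -0.03, and 3 were lower and 1 higher with thapsigargin. Markers of cell type also differed between the lines. Of 6 epithelial markers, 4 were lower in GemR in vehicle (CDH1 at -1.25, EPCAM at -1.24, KRT8 at -0.84 and KRT18 at -0.76) and 1 higher. Of the 2 tested fibroblast and stellate cell markers, ACTA2 was higher (1.67) and RGS5 was not called (0.43). PDGFRA, of the same list but not tested, averaged 12.95 in Par siCont Veh and 2.54 in GemR siCont Veh. The part of these markers in the collagen differences was not tested. Fitted on the 6 vehicle libraries alone, 18 members rather than 29 were called, and the share of all genes in that fit is not given here.

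COL3A1 had the largest difference of any tested member. Its normalized counts were 7212, 7679 and 7156 in Par siCont Veh and 7574, 7042 and 6847 in Par siCont Thap. They were 178, 180.4 and 163 in GemR siCont Veh and 238, 175 and 167 in GemR siCont Thap. Every Par library lay far above every GemR library, and the difference was -5.39 ± 0.12 (SE, adjusted p = 6.5e-17) in vehicle and -5.22 ± 0.12 (adjusted p = 9.1e-17) with thapsigargin. COL5A2, a fibrillar collagen whose gene lies beside COL3A1 on chromosome 2 with 19149 bases between them, went from 2331 to 1853, a difference of -0.34 ± 0.09 that lost its call when fitted on the vehicle libraries alone (adjusted p = 0.0628).

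The chains of type I collagen, the main fibre of stroma, were also lower in GemR. COL1A1 had 2032, 1925 and 2173 normalized counts in Par siCont Veh and 998, 1221 and 1119 in GemR siCont Veh, a difference of -0.88 ± 0.08 (SE, adjusted p = 1.2e-07). COL1A2, its partner chain, had 76.1, 69.8 and 69.2 and 4.45, 15.8 and 19.9, a difference of -2.55 ± 0.57 (adjusted p = 0.00162). The groups did not overlap for either chain, and with thapsigargin the differences were -1.06 ± 0.08 and -2.46 ± 0.57.

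Minor collagens followed. COL26A1, a short nonfibrillar collagen, had 186, 177 and 180.4 in Par siCont Veh and 17.8, 22.8 and 17.0 in GemR siCont Veh, a difference of -3.18 ± 0.22 (SE, adjusted p = 1.4e-09). COL16A1, a collagen that associates with fibrils, had 91.4, 108 and 78.0 and 45.7, 32.4 and 30.3 (-1.34 ± 0.19, adjusted p = 2.0e-05). COL12A1, of the same class, had 443, 479 and 487 and 176, 333 and 313 (-0.83 ± 0.19, adjusted p = 0.00208). In each of these genes all 3 Par libraries lay above all 3 GemR libraries. With thapsigargin the differences were -3.03 ± 0.22, -1.01 ± 0.19 and -1.03 ± 0.19. COL9A3, a chain of a cartilage collagen, had 64.0, 60.9 and 56.6 and 18.9, 24.5 and 22.7 in vehicle (-1.42 ± 0.27, adjusted p = 3.2e-04); its difference of -0.79 with thapsigargin lost its call without Par siCont Thap replicate 3 (adjusted p = 0.0622), GemR siCont Thap replicate 1 (0.0722) or replicate 3 (0.0565).

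Of the basement membrane genes, LAMB1, the beta chain of widely expressed laminins, was lower in GemR, with 2949, 3064 and 3078 in Par siCont Veh and 1001, 1229 and 1204 in GemR siCont Veh. The groups were far apart, at -1.41 ± 0.07 (SE, adjusted p = 5.7e-12) in vehicle and -1.36 ± 0.07 (adjusted p = 7.2e-12) with thapsigargin. COL4A1, a chain of the main basement membrane collagen, differed by -0.73 ± 0.12 and -0.38 ± 0.12, LAMB3 by -0.30 ± 0.07 and -0.35 ± 0.07, and LAMC1, called in vehicle, by -0.50 ± 0.12.

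COL17A1, a transmembrane collagen of hemidesmosomes, was the collagen with the largest gain in GemR. It had 244, 285 and 254 normalized counts in Par siCont Veh and 1003, 1209 and 1327 in GemR siCont Veh. All GemR libraries were above all Par libraries, and the difference was 2.17 ± 0.09 (SE, adjusted p = 1.0e-12) in vehicle and 2.38 ± 0.09 (adjusted p = 2.2e-13) with thapsigargin. ITGB8, whose pair with ITGAV binds latent TGF-beta, had 161, 166 and 152 and 411, 495 and 597 in vehicle, again without overlap. Its difference was 1.62 ± 0.13 (SE, adjusted p = 1.1e-08) in vehicle and 1.96 ± 0.13 (adjusted p = 4.7e-10) with thapsigargin. COL5A3, a minor fibrillar collagen, was near the lower limit of the test in Par, with 6.09, 4.45 and 6.83 against 20.0, 25.4 and 18.9 in vehicle (1.73 ± 0.25, adjusted p = 2.0e-05). With thapsigargin its difference of 0.82 lost its call without Par siCont Thap replicate 2 (adjusted p = 0.0746) or GemR siCont Thap replicate 1 (0.0796).

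LAMA2 had 30.5, 53.4 and 28.3 in Par siCont Veh and 49.0, 108 and 83.3 in GemR siCont Veh, and these groups overlapped, since the lowest GemR library lay below the highest Par library. The difference of 1.06 ± 0.25 (SE, adjusted p = 0.00206) was called in vehicle but not with thapsigargin (0.07 ± 0.25, adjusted p = 0.833). Of the integrins, ITGA5, the alpha chain of the fibronectin receptor, was lower in GemR (-0.75 ± 0.08 and -0.71 ± 0.08). With thapsigargin, ITGAE, ITGB5 and ITGB6 were higher in GemR by 0.45, 0.38 and 0.71, as were COL7A1 (0.75) and LAMB2 (0.43). ITGB4 and ITGA2B, the platelet integrin chain, differed by -0.74 and -0.76 there. ITGBL1 was higher in vehicle by 0.58 ± 0.07; 74.8% of its exon length overlaps exons of FGF14 on the opposite strand, FGF14 averaged 14.7 and 23.5 counts, and this kit does not mark strand, so reads of the pair cannot be told apart. Of ITGB6's exon length, 20.6% overlaps another gene on its strand. The calls of COL11A2, COL4A4, COL7A1 and LAMB2 (higher, 0.28 to 0.97) and of COL18A1, COL4A2, COL4A6, COL6A2, ITGB4 and LAMA3 (lower, -0.55 to -0.25) in vehicle were lost under 1 or more alternatives, where the adjusted p reached 0.133 and 0.16. The libraries whose omission ended such a call included every vehicle library of both lines. FN1 was not called between the lines in either condition (-0.25 ± 0.18 and -0.03 ± 0.18).

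**Figure D2:**
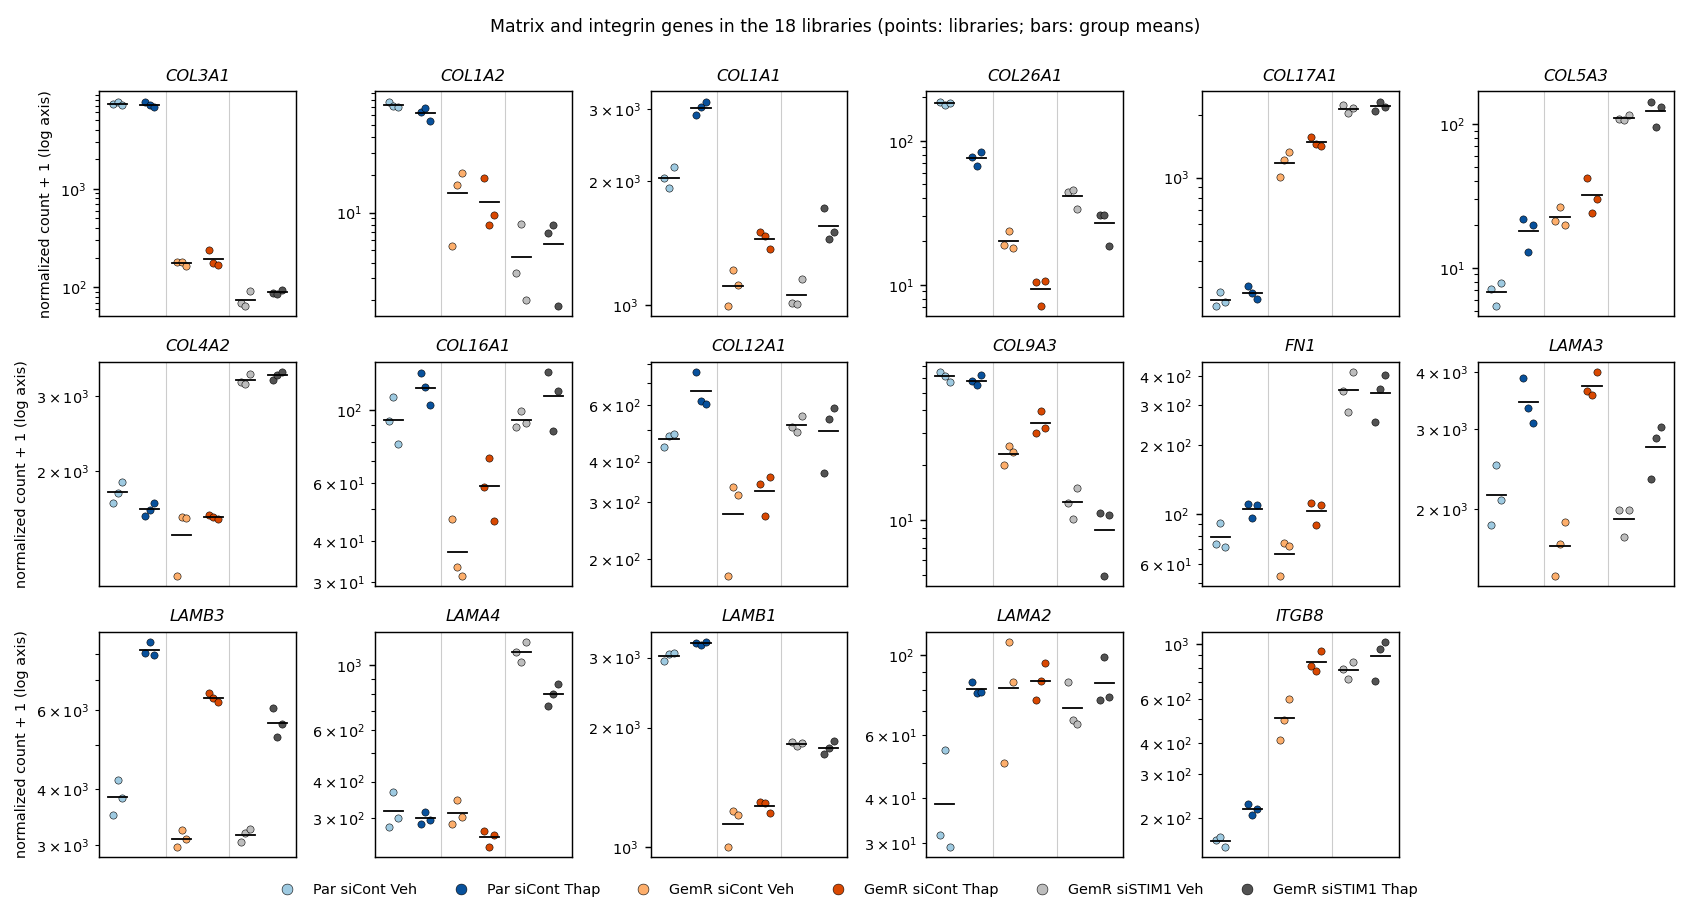
Normalized counts + 1 of 17 members in the 18 libraries, on log axes that differ between panels. Each panel holds, from left to right, Par siCont, GemR siCont and GemR siSTIM1, in Veh and then Thap; points are libraries and bars are group means. COL3A1 drops from 7349 to 174 between Par and GemR siCont in vehicle, FN1 and COL5A3 are highest in GemR siSTIM1, and LAMB3 is higher with thapsigargin in each background.

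With siSTIM1 in GemR cells, FN1, LAMA4, COL5A3 and COL4A2 were higher and COL3A1 was lower still than with siCont. Par cells had no siSTIM1 group, and loss of STIM1 and any other effect of this siRNA cannot be told apart. In vehicle, 26 members were higher and 6 lower with siSTIM1 than with siCont, beside 20.9% and 21.1% of all genes. With thapsigargin, 16 were higher and 8 lower, beside 17.7% and 18.9% of all genes. The share of the tested members that was higher was above that of all genes in both conditions, and the share that was lower was not. The members' median difference was 0.31 in vehicle and 0.07 with thapsigargin, against 0.00 and -0.01 over all genes. The comparisons share no library, but each gene has 1 estimate of the spread for both, so their calls are not independent. In both, 16 members were higher (16 of 26 and 16 of 16) and 4 lower (4 of 6 and 4 of 8). The share of all genes called alike in both is not given here, and this overlap is not read as a result about the members. By class in vehicle, 14 of 26 collagens, 4 of 9 laminins and 6 of 14 integrin subunits were higher, and 5 collagens and 1 integrin subunit were lower. The siSTIM1 and line comparisons use the same GemR siCont libraries, so values below are given side by side only.

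FN1 codes for fibronectin, the matrix protein bound by the integrin of ITGA5 and ITGB1. It had 52.3, 73.6 and 71.0 normalized counts in GemR siCont Veh and 344, 278 and 416 in GemR siSTIM1 Veh. With thapsigargin it had 110.0, 88.1 and 108 and 251, 351 and 405. The siSTIM1 libraries lay above all siCont libraries, Par included, whose values were 73.1, 90.5 and 70.2 in vehicle and 109.5, 95.0 and 108 with thapsigargin. The difference was 2.38 ± 0.18 (SE, adjusted p = 9.0e-09) in vehicle and 1.69 ± 0.18 (adjusted p = 6.2e-07) with thapsigargin. ITGA5 was higher with siSTIM1 by 0.48 ± 0.08 in vehicle and 0.37 ± 0.08 with thapsigargin.

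LAMA4, the alpha chain of vessel and mesenchymal laminin, had 286, 345 and 302 in GemR siCont Veh and 1109, 1024 and 1198 in GemR siSTIM1 Veh. With thapsigargin it had 271, 239 and 261 and 724, 797 and 866. The groups were well apart in both conditions, at 1.83 ± 0.11 (SE, adjusted p = 2.4e-10) and 1.63 ± 0.11 (adjusted p = 7.2e-10). In Par, LAMA4 averaged 316 ± 46.6 (SD) in vehicle, near the GemR siCont level. PECAM1, an endothelial marker, differed by -0.64 with siSTIM1 in vehicle and -1.28 with thapsigargin, and CDH5, another, by -1.33 in vehicle and 0.01, not called, with thapsigargin. LAMB1 rose with siSTIM1 from 1001, 1229 and 1204 to 1835, 1795 and 1828 in vehicle (0.67 ± 0.07, adjusted p = 3.6e-07), and LAMB2 by 0.69 ± 0.09.

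COL5A3 had 20.0, 25.4 and 18.9 in GemR siCont Veh and 108, 106 and 114 in GemR siSTIM1 Veh. With thapsigargin it had 41.4, 22.9 and 28.9 and 142, 93.9 and 131. The siSTIM1 libraries lay above all siCont libraries, at 2.31 ± 0.25 (SE, adjusted p = 8.7e-07) in vehicle and 1.96 ± 0.25 (adjusted p = 5.0e-06) with thapsigargin. The related COL5A1 and COL5A2 differed by 0.73 and 0.51 in vehicle; the COL5A1 call was lost without 7 libraries in turn, with an adjusted p of 0.198 without GemR siCont Veh replicate 1.

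COL4A2 and COL4A1 form the same basement membrane trimer and are read from starts 126 bases apart, shown above. COL4A2 rose with siSTIM1, from 1132, 1561 and 1551 to 3245, 3200.2 and 3382 in vehicle and from 1573, 1559.8 and 1539.7 to 3276, 3373 and 3418 with thapsigargin. Its difference was 1.23 ± 0.09 (SE, adjusted p = 4.9e-09) and 1.11 ± 0.09 (adjusted p = 1.4e-08), with no overlap of groups. COL4A1 had 813, 1238 and 1204 and 1395, 1215 and 1355 in vehicle, which overlap. Its difference was 0.31 ± 0.12 in vehicle, a call lost without GemR siCont Veh replicate 1 (adjusted p = 0.29), without 8 other libraries in turn and by edgeR (0.155) and DESeq2 (0.128), and 0.04 ± 0.12 with thapsigargin, not called. The log2 ratio of COL4A2 to COL4A1 counts was 0.05, -0.02 and 0.00 in Par siCont Veh, 0.48, 0.33 and 0.37 in GemR siCont Veh and 1.22, 1.40 and 1.32 in GemR siSTIM1 Veh. The 3 backgrounds did not overlap in this ratio, which is within a library and compares changes, not amounts of the chains. COL4A6 and COL4A5, another pair read from neighbouring starts, on chromosome X, had log2 ratios of -0.28, -0.39 and -0.24 in GemR siCont Veh and 0.10, 0.21 and 0.36 in GemR siSTIM1 Veh. COL4A6 was higher with siSTIM1 in vehicle (0.41 ± 0.10), and COL4A5 was lower with thapsigargin (-0.41 ± 0.10).

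**Figure D3:**
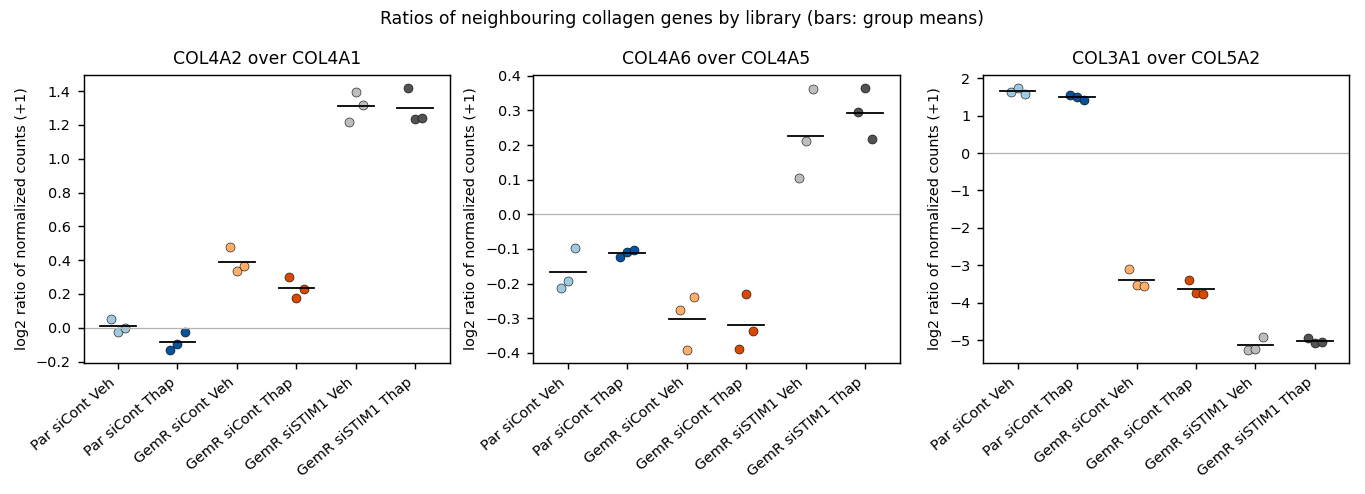
Log2 ratios of normalized counts (+ 1) within each library for 3 pairs of neighbouring collagen genes. Points are libraries, bars are group means, and the vertical axes differ. The COL4A2 over COL4A1 ratio lies at or above 1.22 in all 6 GemR siSTIM1 libraries and at or below 0.48 in the other 12.

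COL16A1, COL12A1, COL26A1 and COL17A1 were also higher with siSTIM1 in both conditions. In vehicle, COL16A1 went from 45.7, 32.4 and 30.3 to 87.6, 98.6 and 90.4 (1.35 ± 0.19, adjusted p = 2.6e-05). COL12A1 went from 176, 333 and 313 to 509.8, 492 and 554 (0.97 ± 0.19, adjusted p = 6.0e-04). COL26A1 went from 17.8, 22.8 and 17.0 to 43.2, 44.7 and 32.8 (1.03 ± 0.22, adjusted p = 0.00123). These 3 were lower in GemR siCont than in Par (-1.34, -0.83 and -3.18 in vehicle), and the siSTIM1 level of COL26A1 stayed below all Par libraries. COL17A1, higher in GemR than in Par, was higher still with siSTIM1, from 1003, 1209 and 1327 to 2219, 2023 and 2156 (0.86 ± 0.09, adjusted p = 7.6e-07). With thapsigargin the siSTIM1 differences were 0.92 ± 0.19 for COL16A1, 1.49 ± 0.22 for COL26A1, 0.57 ± 0.09 for COL17A1 and 0.60 ± 0.19 for COL12A1. The last lost its call without GemR siCont Thap replicate 2 (adjusted p = 0.0961) or GemR siSTIM1 Thap replicate 2 (0.0736) or 3 (0.0969).

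Among the integrins, ITGB8 rose with siSTIM1 from 411, 495 and 597 to 793, 724 and 840.2 in vehicle (0.66 ± 0.13, adjusted p = 5.5e-04), but was not called with thapsigargin (0.07 ± 0.13). The collagen receptor chains ITGA1 and ITGA2 were higher in vehicle by 0.86 ± 0.12 and 0.58 ± 0.16 and were not called with thapsigargin (0.12 and -0.08). The direct test of the difference between the conditions, given below as a difference of responses, called ITGA1 but not ITGA2 or ITGB8. ITGAE, which pairs with ITGB7 and binds E-cadherin, was lower in vehicle (-0.59 ± 0.12). ITGBL1 was higher by 0.82 ± 0.07 and 0.87 ± 0.07, and FGF14, which overlaps it, averaged 23.5 with siCont and 20.3 with siSTIM1 in vehicle. ITGB1 and ITGB4 differed by 0.37 and 0.31 in vehicle; both calls were lost without GemR siCont Veh replicate 1 (adjusted p = 0.0887 and 0.0619), ITGB1's without GemR siSTIM1 Veh replicate 1 (0.0664) and ITGB4's without GemR siSTIM1 Veh replicate 3 (0.0602).

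Fewer members fell. COL3A1, already low in GemR, went from 178, 180.4 and 163 to 68.3, 64.0 and 90.4 in vehicle and from 238, 175 and 167 to 87.0, 84.5 and 91.9 with thapsigargin. Its siSTIM1 libraries lay below all siCont libraries, at -1.23 ± 0.12 (SE, adjusted p = 3.1e-07) and -1.11 ± 0.12 (adjusted p = 8.1e-07). COL7A1, the anchoring fibril collagen, was lower in both conditions (-0.42 ± 0.11 and -0.67 ± 0.11). COL2A1, the cartilage collagen, averaged 25.4 with siCont and 4.13 with siSTIM1 in vehicle, counts so low that the size of its difference (-2.40 ± 0.36) depends on the pseudocount (-1.72 with 5). COL9A3 fell to 9.88, 3.91 and 9.67 with thapsigargin, from 29.1, 38.8 and 31.1 (-2.02 ± 0.27, adjusted p = 7.2e-06). In vehicle COL9A3 had 11.4, 9.15 and 13.9 with siSTIM1, and its difference of -0.90 lost its call without GemR siSTIM1 Veh replicate 2 (adjusted p = 0.0502). COL1A2 had 2.28, 7.12 and 0.993 in GemR siSTIM1 Veh, and its difference of -1.72 lost its call without GemR siCont Veh replicate 2 (0.0724) or 3 (0.0821) or GemR siSTIM1 Veh replicate 1 (0.0656) or 3 (0.118). COL1A1 did not follow its partner chain: it was not called in vehicle (-0.07 ± 0.08) or with thapsigargin (0.10 ± 0.08). The calls with thapsigargin of COL23A1, COL5A1, COL5A2 and COL6A2 (higher, 0.27 to 1.11) and of COL28A1 and LAMB3 (lower, -1.10 and -0.19) were lost under 1 or more alternatives, where the adjusted p reached 0.152 and 0.183, and each of the 6 thapsigargin libraries ended 1 or more of them by its omission. Leaving out GemR siCont Veh replicate 1, or both libraries with a length trend, left 1 or more further siSTIM1 calls uncalled, but FN1, LAMA4, COL5A3, COL4A2, COL16A1, COL26A1, COL17A1 and COL3A1 were called under all 29 alternatives in both conditions.

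**Figure D4:**
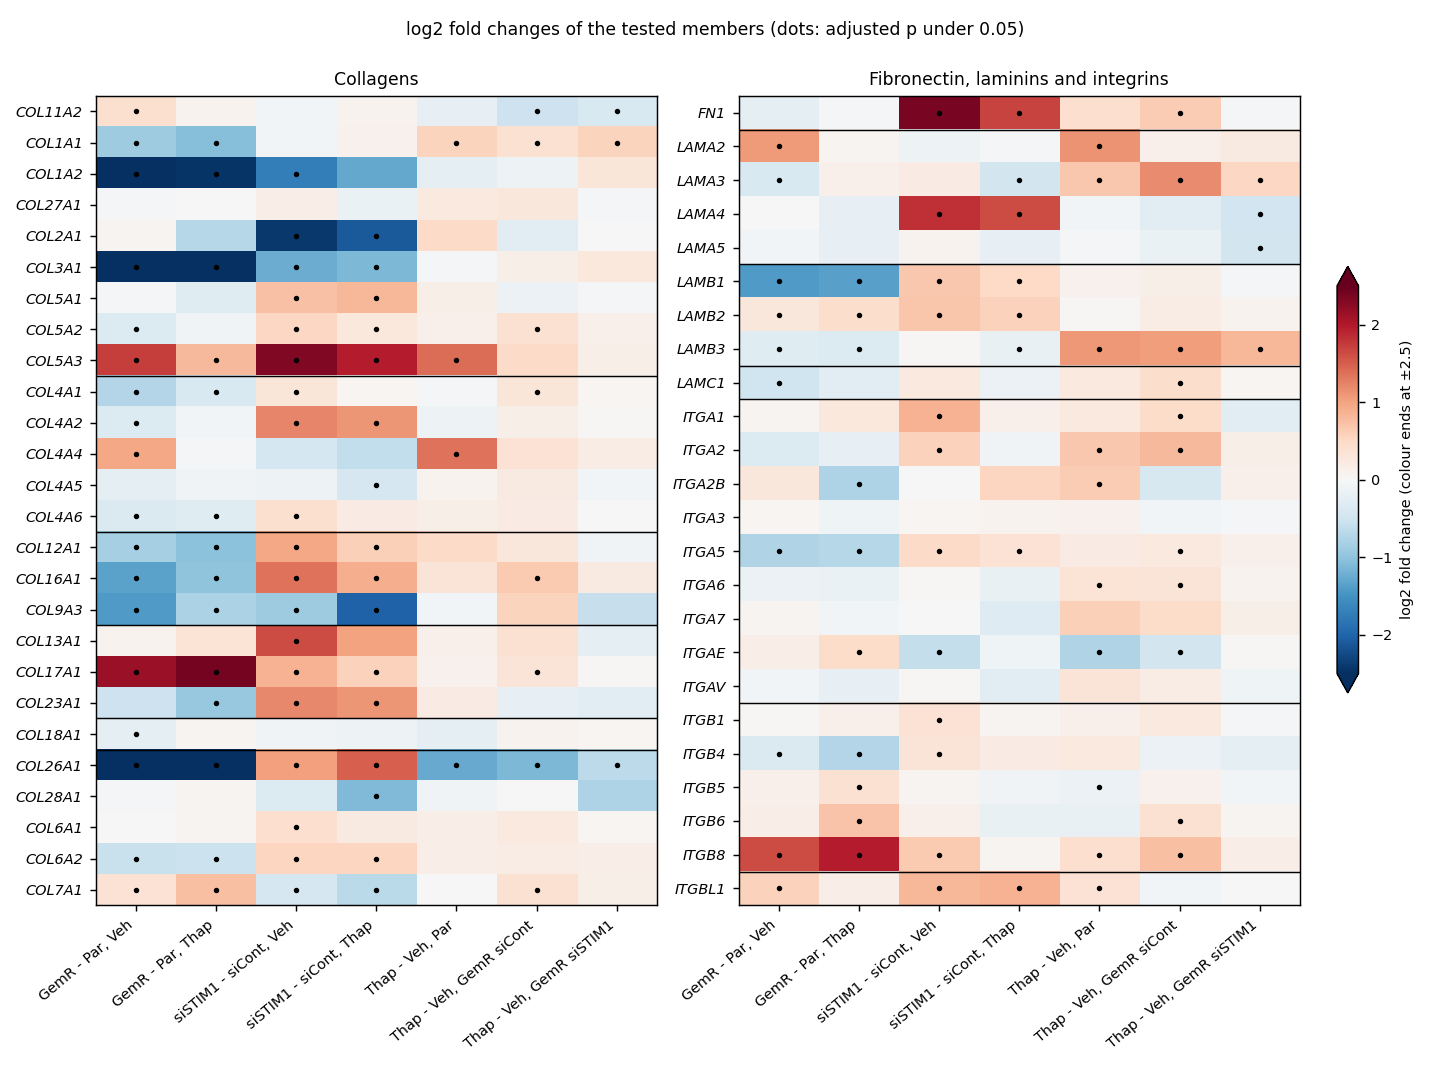
Log2 fold changes of 50 tested members (rows, grouped by family with black lines) in 7 comparisons (columns). Red is higher and blue lower in the first group named, colours end at ±2.5, and dots mark adjusted p under 0.05. The thapsigargin columns hold 19 or fewer dots each, and the siSTIM1 vehicle column holds 31.

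Thapsigargin raised the epithelial laminin chains LAMA3 and LAMB3 and the collagen chain COL1A1 in all 3 backgrounds. In Par siCont, 12 members rose and 3 fell, beside 20.5% and 19.7% of all genes. In GemR siCont, 17 rose and 3 fell, beside 17.9% and 15.8% of all genes. In GemR siSTIM1, 4 rose and 4 fell, beside 12.5% and 11.9% of all genes. The share of the 51 tested members that rose was near that of all genes in Par siCont, above it in GemR siCont and under it in GemR siSTIM1. The members' median response was 0.16, 0.24 and 0.04, against -0.02, -0.03 and -0.01 over all genes. Counts in Par depended on the libraries in the fit: 26 members were called from the 6 Par libraries alone, 24 without GemR siCont Veh replicate 1 and 27 without both libraries with a length trend, against 15. In GemR siCont, 13 rather than 20 were called from its own 6 libraries. In GemR siSTIM1, 5 rather than 8 were called without GemR siSTIM1 Veh replicate 1. The shares of all genes in these other fits are not given here. Moves of the members and of all genes thus cannot be told apart.

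LAMB3 had 3499, 4196 and 3814 in Par siCont Veh and 8007, 8468 and 7926 in Par siCont Thap. In GemR siCont it had 2978, 3240.3 and 3088 and 6553, 6362 and 6249, and in GemR siSTIM1 3043, 3186 and 3250.5 and 6054, 5209 and 5583. All treated libraries were above all vehicle libraries of any background, and the responses were 1.09 ± 0.07 (SE, adjusted p = 2.3e-10), 1.04 ± 0.07 (adjusted p = 4.1e-10) and 0.83 ± 0.07 (adjusted p = 1.9e-08).

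LAMA3, the alpha chain, had 1843, 2506 and 2099.8 and 3888, 3336 and 3098 in Par siCont. In GemR siCont it had 1425, 1679.7 and 1870.3 and 3631, 3564 and 4006, and in GemR siSTIM1 1995, 1739 and 1989 and 2328, 2864 and 3038. The responses were 0.68 ± 0.12 (SE, adjusted p = 1.6e-04), 1.18 ± 0.12 (adjusted p = 2.5e-07) and 0.52 ± 0.12 (adjusted p = 0.00329), again without overlap within a background. LAMA3 was also lower with siSTIM1 than with siCont under thapsigargin (-0.45 ± 0.12). The integrin chains that bind this laminin moved less: ITGA3 and ITGB4 were not called in any background, and ITGA6 responded by 0.34 in Par siCont and 0.32 in GemR siCont, values that fell to 0.10 and 0.18 (adjusted p = 0.426 and 0.165) with quantile-normalized values.

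**Figure D5:**
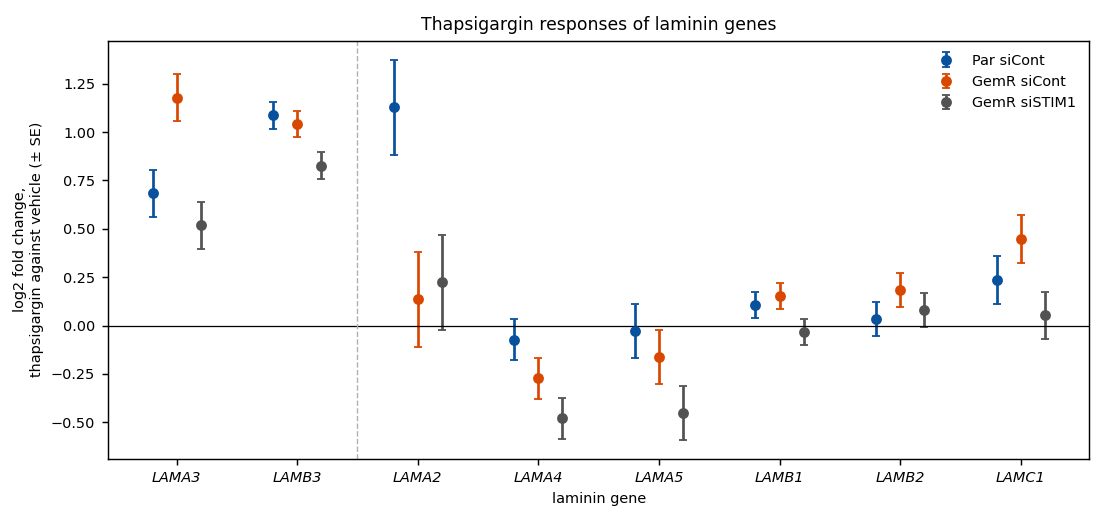
Thapsigargin responses (log2 fold change against vehicle, ± SE of the fit) of 8 laminin chains in Par siCont, GemR siCont and GemR siSTIM1. LAMA3 and LAMB3, left of the dashed line, lie above 0.5 in each background; of the 6 chains to its right, LAMA2 in Par is the one above 1.

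LAMA2, LAMA4, LAMA5 and LAMC1 were each called in 1 background, which does not show that their responses differed. The direct test of the difference between the responses of GemR siCont and Par siCont called 0 of 9 laminins. That between GemR siSTIM1 and GemR siCont called 1, LAMA3. LAMA2 had 30.5, 53.4 and 28.3 and 83.1, 77.7 and 78.0 in Par siCont, without overlap (1.13 ± 0.25, adjusted p = 0.00116), and was not called in GemR siCont (0.14 ± 0.25) or GemR siSTIM1 (0.22 ± 0.25). LAMA4 fell in GemR siSTIM1 from 1109, 1024 and 1198 to 724, 797 and 866 (-0.48 ± 0.11, adjusted p = 0.00193). LAMB1 and LAMB2 were not called in any background. LAMC1 differed by 0.45 ± 0.12 in GemR siCont, a call lost when fitted on those 6 libraries alone (adjusted p = 0.0779). LAMA5 differed by -0.45 in GemR siSTIM1; that call was lost without GemR siSTIM1 Veh replicate 1 (0.0694) or 3 (0.0996) and without GemR siSTIM1 Thap replicate 1 (0.0585) or 2 (0.0568).

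COL1A1 had 2032, 1925 and 2173 and 2903, 3039 and 3123 in Par siCont. In GemR siCont it had 998, 1221 and 1119 and 1503, 1471 and 1371, and in GemR siSTIM1 1010.5, 1007 and 1160.0 and 1726, 1447 and 1509. Treated libraries were higher without overlap in each background, at 0.57 ± 0.08 (SE, adjusted p = 2.4e-05), 0.38 ± 0.08 (adjusted p = 0.00145) and 0.56 ± 0.08 (adjusted p = 4.5e-05). Its partner chain COL1A2 was not called in any (-0.23 ± 0.57, -0.13 ± 0.57 and 0.31 ± 0.57), at far lower counts. COL26A1 went the other way, from 186, 177 and 180.4 to 76.5, 65.8 and 83.2 in Par siCont (-1.26 ± 0.22, adjusted p = 1.4e-04) and from 17.8, 22.8 and 17.0 to 9.40, 6.17 and 9.64 in GemR siCont (-1.12 ± 0.22, adjusted p = 5.9e-04). In GemR siSTIM1 its difference of -0.65 lost its call without GemR siSTIM1 Veh replicate 1 (adjusted p = 0.118) or 2 (0.129) or GemR siSTIM1 Thap replicate 3 (0.216). COL5A3 rose in Par siCont, from 6.09, 4.45 and 6.83 to 20.8, 11.9 and 18.7 (1.40 ± 0.25, adjusted p = 1.8e-04), and COL4A4 by 1.35 ± 0.33 from a mean of 7.77. In GemR siCont, COL5A2 rose (0.38 ± 0.09) and COL11A2 fell (-0.52 ± 0.13). The calls of COL16A1, COL17A1, COL4A1, COL7A1, ITGA5 and ITGB6 in GemR siCont (0.24 to 0.66) were lost under 1 or more alternatives, where the adjusted p reached 0.298, among them the omission of GemR siCont Veh replicate 1 and of each GemR siCont Thap library.

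FN1 rose with thapsigargin in GemR siCont (0.64 ± 0.18, adjusted p = 0.0102). It was not called in Par siCont (0.42 ± 0.18, adjusted p = 0.0727) or in GemR siSTIM1 (-0.05 ± 0.18, adjusted p = 0.886). ITGA2 rose in Par siCont from 6775 ± 528 to 10781 ± 1124 (SD, n = 3), by 0.67 ± 0.16 (SE, adjusted p = 0.00287), and in GemR siCont from 5413 ± 1310.1 to 9305 ± 924, by 0.81 ± 0.16 (adjusted p = 7.0e-04). It was not called in GemR siSTIM1 (0.15 ± 0.16). ITGB8 had 411, 495 and 597 and 816, 773 and 934 in GemR siCont, without overlap (0.76 ± 0.13, adjusted p = 1.3e-04). In Par siCont it had 161, 166 and 152 and 227, 204 and 215, a difference of 0.43 whose call was lost without Par siCont Thap replicate 1 (adjusted p = 0.0543). ITGAE fell in Par siCont (-0.74 ± 0.12) and in GemR siCont (-0.46 ± 0.12), where the call was lost when fitted on those 6 libraries alone (adjusted p = 0.0514), and was not called in GemR siSTIM1 (0.02 ± 0.12). The direct tests of the difference between responses, given below, did not call FN1, ITGA2, ITGB8 or ITGAE. ITGA1 rose in GemR siCont by 0.45 ± 0.12; 5.43% of its exon length overlaps other genes, among them PELO on the same strand, which averaged 843 and 1218 counts in vehicle and thapsigargin, and its part in the ITGA1 value was not tested.

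The difference between responses was tested directly. Between GemR siCont and Par siCont, 1 member had a higher and 2 a lower response in GemR, beside 7.14% and 7.66% of all genes. Between GemR siSTIM1 and GemR siCont, 0 members had a higher and 2 a lower response with siSTIM1 by limma, beside 1.50% and 2.90% of all genes. By limma at an unadjusted p under 0.05, 1 member had a higher and 11 a lower response with siSTIM1. The share of all genes at that p is not given here. For higher responses, edgeR and DESeq2 called 0 and 0 members. The counts by adjusted p are too small to set against those shares. The members' medians were 0.08 and -0.22, against 0.01 and 0.00 over all genes. LAMA3's response was lower with siSTIM1 (-0.66 ± 0.17, adjusted p = 0.0328), a call lost without GemR siCont Thap replicate 1 (0.0626), 2 (0.0527) or 3 (0.0969), GemR siSTIM1 Veh replicate 1 (0.0861) or 3 (0.0872) or GemR siSTIM1 Thap replicate 1 (0.0897), and by edgeR (0.104). For LAMB3 the difference was -0.22 ± 0.10 (adjusted p = 0.222), and for FN1 -0.69 ± 0.26 (adjusted p = 0.139). The comparisons share the GemR siCont libraries. Without GemR siCont Veh replicate 1 and GemR siSTIM1 Thap replicate 1, 14 rather than 3 members were called between GemR siCont and Par siCont, and 1 rather than 2 with siSTIM1. Shares of all genes in that fit are not given here.

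The authors' deposited tables of thapsigargin against vehicle give an adjusted p for 61 of the 84 members in Par siCont, 59 in GemR siCont and 55 in GemR siSTIM1. At an adjusted p under 0.05, the authors' deposited table has 13 members higher and 3 lower in Par siCont, beside 17.8% and 16.4% of all genes with an adjusted p. In GemR siCont the authors' deposited table has 16 higher and 3 lower, beside 15.9% and 14.5%. In GemR siSTIM1 the authors' deposited table has 4 higher and 4 lower, beside 12.1% and 11.5%.

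Other genes of matrix assembly and adhesion were counted from lists. Of 31 tested genes of collagen folding, secretion and cross-linking, 15 were lower and 8 higher in GemR siCont Veh than in Par siCont Veh, beside 20.1% and 18.1% of all genes. Among them were CREB3L1, a transcription factor of collagen secretion (-4.24), LOXL1, a cross-linking oxidase (-1.49), and P3H2, a prolyl hydroxylase (1.23). With siSTIM1 in vehicle, 5 were higher and 10 lower, beside 20.9% and 21.1% of all genes. The median difference of this list was -0.12, with a range from -0.90 to 1.39. LOXL1 at 1.39 and P3H2 at 1.24 were among the 5 that were higher. With thapsigargin, 6 rose and 6 fell in Par siCont, 8 and 3 in GemR siCont and 5 and 4 in GemR siSTIM1. All genes gave 20.5% and 19.7%, 17.9% and 15.8%, and 12.5% and 11.9% there, and the shares of the list were near these in Par siCont and GemR siSTIM1. FKBP14, a folding isomerase (1.39, 0.87 and 0.79), and MIA3, which loads procollagen into transport carriers (0.92, 0.58 and 0.57), rose in all 3. Of 23 other matrix genes, 7 were higher and 7 lower in GemR siCont Veh, against the same 18.1% and 20.1% of all genes, with the proteoglycan SPOCK1 at -4.36 and tenascin-C (TNC) at 3.75. With siSTIM1 in vehicle, 10 of them were higher and 2 lower, against 20.9% and 21.1%, with fibrillin (FBN1) at 2.03 and perlecan (HSPG2) at 1.19.

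Of 15 non-integrin matrix receptors, 2 were higher and 8 lower in GemR siCont Veh, beside 18.1% and 20.1% of all genes, with BCAM, a laminin receptor, at -1.66. With thapsigargin, 6 were higher and 7 lower in GemR siCont than in Par siCont, beside 23.2% and 25.0% of all genes. With siSTIM1 in vehicle, 3 were higher and 6 lower, beside 20.9% and 21.1%. With siSTIM1 and thapsigargin, 3 were higher and 7 lower, beside 17.7% and 18.9%. CD44, a hyaluronan receptor, rose with thapsigargin by 1.30 in GemR siCont and 0.79 in GemR siSTIM1. Its response was higher in GemR siCont than in Par siCont by 1.21, and lower with siSTIM1 than with siCont (-0.51). Of 33 genes of adhesion complexes, 8 were higher and 14 lower in GemR siCont Veh, beside the same shares of all genes, with the scaffold NEDD9 at -4.47 and ILK, the integrin-linked kinase, at 2.12. With siSTIM1 in vehicle, 9 of these adhesion complex genes were higher and 3 lower, beside 20.9% and 21.1% of all genes. With siSTIM1 and thapsigargin, 5 were higher and 5 lower, beside 17.7% and 18.9% of all genes. TNS4, a tensin, fell with thapsigargin in each background (-1.37, -1.48 and -1.39), and NEDD9 rose in GemR siCont (2.37) and GemR siSTIM1 (1.19). The NEDD9 response was higher in GemR siCont than in Par siCont (2.28) and lower with siSTIM1 than with siCont (-1.18), both called.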

How the data were processed

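Per the labels' protocols, the 18 libraries were made with Illumina's TruSeq RNA v2 kit, which does not mark strand. Hg38, STAR 2.6.0c, HTSeq 0.11.1 and DESeq2 are named in the submitters' processing notes, and which annotation was counted is not given in the sources used here. Normalized counts, deposited by the authors in 1 table, were used as a signal: the values of each library are whole multiples of 1 step (100% within 0.01), so reads could be recovered. GemR siSTIM1 Veh replicate 3 had a step too near 1 for a check, and count tests used the other 17 libraries. Columns not used: 0. The authors also deposited tables of log2 fold changes and adjusted p-values for thapsigargin against vehicle, per the file headers.

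From these values, log2(normalized count + 1) was fitted with limma 3.58.1 (trend, 1 mean per group, 12 residual degrees of freedom) in R 4.3.3 over 13096 genes with a mean of at least 10. Two-sided tests of 9 comparisons, 2 of them differences of responses, were adjusted by Benjamini and Hochberg within each comparison. The script was tested on simulated data. Of the members tested, 1 is counted but not reported here by name. The members and lists were chosen with earlier results of these data known. Values in every library were given for FN1 and for members with a mean of at least 50 in a group and a called difference of at least 1; from each other list up to 4 called genes a comparison could be named. Exon lengths and positions came from GENCODE 29 (84 of 84 members matched), promoter windows from RefSeq. The 29 alternatives were other pseudocounts (0.5 and 5), filters and scalings, fewer libraries, a replicate block, edgeR 4.0.16 and DESeq2 1.42.0.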

Additional observations from a re-analysis of the deposited data

Results flagged for a closer look

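For 5 members, the thapsigargin responses of 2 backgrounds differed by the test of the difference itself (limma). ITGA2B responded by 0.64 in Par siCont and -0.40 in GemR siCont, a difference of -1.05 ± 0.30 (SE, adjusted p = 0.0203) at mean counts of 26.2 to 41.4 in Par; it was lost without GemR siCont Thap replicate 3 (adjusted p = 0.0512). ITGBL1 responded by 0.36 and -0.06, a difference of -0.42 ± 0.10 (adjusted p = 0.00613) that was called under all alternatives; FGF14, which overlaps it, averaged 14.7 and 13.3 in Par. ITGB5 responded by -0.15 and 0.10, a difference of 0.25 ± 0.08 (adjusted p = 0.0279) that was lost without Par siCont Veh replicate 2 (0.0647) or 3 (0.0631), Par siCont Thap replicate 1 (0.0547) or 3 (0.0684) or GemR siCont Thap replicate 1 (0.0566) or 2 (0.0799).

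LAMA3 responded by 1.18 in GemR siCont and 0.52 in GemR siSTIM1, a difference of -0.66 ± 0.17 (adjusted p = 0.0328); the omissions that ended this call are given above. ITGA1 responded by 0.45 and -0.29, a difference of -0.74 ± 0.17 (adjusted p = 0.0154) that was lost without GemR siCont Thap replicate 1 (0.0532) or GemR siSTIM1 Veh replicate 1 (0.0518). PELO, which shares exon bases with ITGA1, averaged 843 and 1218 in GemR siCont and 856 and 1114 in GemR siSTIM1, and its part was not tested.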

How the results depend on the processing

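Of 158 called member results, 106 were called under every alternative in which the gene was tested, and 52 were lost under at least 1. The alternative filter at a mean of 50 left out the lower members, so not all of the 106 were tested under all 29. LAMA5 in GemR siCont against Par siCont, vehicle, was -0.06 and not called, and 0.19 (adjusted p = 0.0468) without GemR siCont Veh replicate 1 and GemR siSTIM1 Thap replicate 1 together. Shares of all genes in the fits that follow are not given here, so moves of members and of all genes cannot be told apart. Counts of members called moved by over 1.5 times as follows, in cases whose cause was not tested. From only the libraries compared, they were 18 for GemR siCont against Par siCont in vehicle (29 in all libraries), 26 for thapsigargin in Par siCont (15) and 13 in GemR siCont (20). Without the 2 named libraries together they were 27 for thapsigargin in Par siCont, 14 for the difference of responses of GemR siCont and Par siCont (3) and 1 for that of GemR siSTIM1 and GemR siCont (2). The GemR and Par difference gave 1 with no filter, 5 with edgeR and 5 with DESeq2, and the siSTIM1 difference 1 with edgeR. Leaving out each library in turn gave 26 to 30 and 22 to 31 members for GemR against Par in vehicle and thapsigargin, 27 to 32 and 18 to 30 for siSTIM1, 13 to 24, 15 to 25 and 5 to 9 for thapsigargin in Par siCont, GemR siCont and GemR siSTIM1, and 2 to 8 and 0 to 6 for the 2 differences of responses. Those counts moved by over 1.5 times without GemR siCont Veh replicate 1 (24 for thapsigargin in Par siCont, 8 for the GemR and Par difference), GemR siSTIM1 Veh replicate 1 (5 for thapsigargin in GemR siSTIM1, 0 for the siSTIM1 difference), Par siCont Veh replicate 1 and GemR siSTIM1 Thap replicate 1 (5 each for the GemR and Par difference), GemR siCont Veh replicate 3 (6 for the siSTIM1 difference) and GemR siCont Thap replicate 1 (0). The siSTIM1 difference gave 1 without GemR siCont Thap replicate 2 or 3, GemR siSTIM1 Veh replicate 3 or GemR siSTIM1 Thap replicate 1. The replicate numbers did not pair the libraries: same-numbered libraries of different groups correlated from -0.359 to 0.686 in their deviations, and 9 of 18 correlated best with their own number. With a replicate block the counts were 29, 26, 32, 24, 17, 22, 7, 4 and 3, against 29, 25, 32, 24, 15, 20, 8, 3 and 2 without it, in the order above. Depth limits the 33 members under the filter, for which no difference was tested.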

Other observations

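Of the members under the filter, 4 averaged at least 10 normalized counts in a group and are given as values with no test. ITGB3, which pairs with ITGAV or ITGA2B, averaged 2.81 in Par siCont Veh, 8.74 in GemR siCont Veh and 5.51 in GemR siSTIM1 Veh, and 6.50, 7.03 and 15.1 with thapsigargin; 51.6% of its exon length overlaps another gene on its strand. ITGA10, a collagen receptor chain, averaged 3.35, 4.60 and 10.1 in vehicle and 9.26, 4.97 and 2.32 with thapsigargin. ITGB2, the beta chain of leukocyte integrins, averaged 2.64, 3.45 and 14.3 in vehicle and 3.77, 4.30 and 10.2 with thapsigargin. ITGB7, which pairs with ITGAE, averaged 2.64, 3.79 and 6.34 in vehicle and 12.6, 6.43 and 8.42 with thapsigargin; 51.4% of ITGB7's exon length overlaps exons of ZNF740 on the opposite strand.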
